A study of Mus musculus with 472 samples.

Results

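Retinal ganglion cells that carried the homeobox gene Irx3 without Eomes were described from single-cell transcriptomes of the mouse retina. Members were cells with Irx3 at 10 CPM (counts scaled to 1000000 gene counts per cell) or more and Eomes below 10 CPM, where a gene at 10 CPM or more is called positive. The rule found 59 cells, 12.5% of all cells measured (exact 95% interval 9.65% to 15.8%), called Irx3+ cells below. They were set against the 400 cells with Irx3 below 10 CPM, called Irx3-low cells, and 13 cells positive for both genes, called Irx3+Eomes+ cells, made up the rest. All cells came from C57BL/6J mice aged 7 to 9 weeks, and the labels give no treatment and no genetic change. Each ganglion cell, an output neuron of the retina, was patched in a flat-mounted retina and its responses to blue and green spots were recorded, after which its content was drawn into the pipette and made into a Smart-seq2 library. The labels name no animal, so all cells count as 1 sample and no test between cells was made. Every interval reflects the number of cells alone and leaves out how animals differ.

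Iroquois proteins (Irx) are homeodomain transcription factors of the TALE class that pattern neural tissue during development. In mouse their genes sit in clusters on chromosomes 8 and 13, and Irx5 and Irx6 are also known from cone bipolar cells of the retina. Eomes, a T-box factor, is known from ganglion cells that carry the photopigment gene Opn4. Ganglion cells divide into many types that share pan-ganglion genes such as Rbpms and differ in transcription factors, ion channels and adhesion molecules.

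Irx3 (chr8:91798525-91802067, mm10, minus strand) lies in a cluster with Irx5 (chr8:92357625-92376286, plus strand) and Irx6 (chr8:92674288-92680956, plus strand). Irx4 (chr13:73260479-73269608) and Irx2 (chr13:72628820-72634198) lie on the plus strand of chromosome 13. The promoter of Irx4 is shown because Irx4 was carried together with Irx3 although it lies on another chromosome. It runs from 250 bases before to 50 bases after the start site (RefSeq, GRCm38.p6, chr13:73260247-73260546, plus strand) and has 70.7% G and C. The capitals mark its single TAAT, a core that many homeodomains bind, 67 bases before the start.
Irx4: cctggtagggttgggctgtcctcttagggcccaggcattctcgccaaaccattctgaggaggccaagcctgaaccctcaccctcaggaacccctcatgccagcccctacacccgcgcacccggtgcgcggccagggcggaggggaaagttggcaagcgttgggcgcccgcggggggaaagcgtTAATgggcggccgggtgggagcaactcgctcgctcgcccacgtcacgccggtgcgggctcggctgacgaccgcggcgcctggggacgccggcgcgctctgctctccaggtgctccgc
TAAT on either strand occurred in 58% of 32851 RefSeq promoters of this length. The Iroquois core ACANNTGT, which reads the same on both strands and does not contain TAAT, was not in this window and occurred in 7.38% of all promoters.

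In the Irx3+ cells, Irx3 had a lowest value of 10.3, a median of 30.7 and a highest of 363.96 CPM. Of the 59 cells, 30 had 30 CPM or more and 7 had 100 CPM or more. Irx3 was above 0 in 54 of the Irx3-low cells and at 0 in the others. The cells were chosen by these Irx3 and Eomes levels, which are given as a description. The cells just inside the threshold had 10.3, 10.7 and 11.2 CPM, and those just outside had 8.37, 7.78 and 7.11 CPM, so values lay close to the threshold on both sides. Eomes was at 0 in 46 of the 59 Irx3+ cells and reached 8.71 CPM at most. Irx3os, an antisense RNA that shares exon bases with Irx3, was positive in 1 Irx3+ cell, and reads over the few shared bases cannot be told apart if the counting ignored strand.

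**Figure D1:**
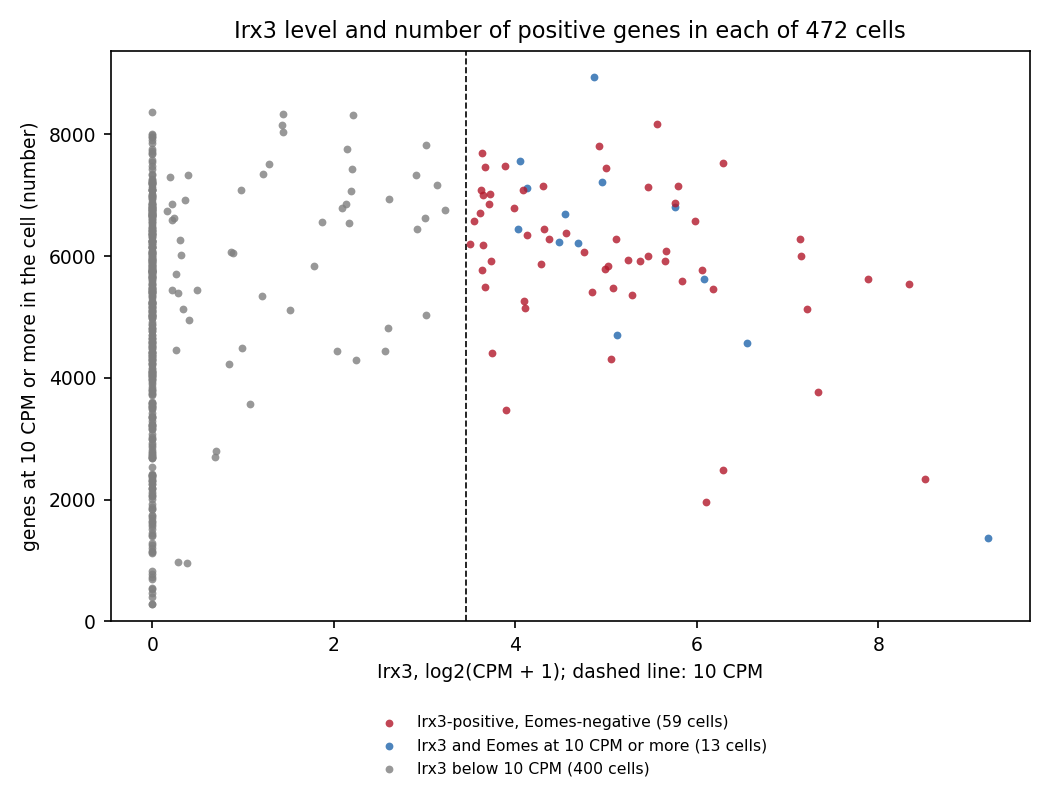
Each point is 1 cell, placed by Irx3 level on a log2(CPM + 1) axis and by the number of genes at 10 CPM or more, with a dashed line at 10 CPM; colours give the Irx3+, Irx3+Eomes+ and Irx3-low cells. The Irx3+ cells have a median of 6068 positive genes, against 5380.5 in the Irx3-low cells, which spread further down.

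The Irx3+ cells carried the genes of ganglion cells. All 59 (100%, 93.9% to 100%) were positive for at least 6 of 12 pan-ganglion genes, against 96% of Irx3-low cells (93.6% to 97.7%). The summed level of the 12 genes had a lowest value of 1895, a median of 8579 and a highest of 14942 CPM in Irx3+ cells, against 32.5, 7209 and 19719 CPM in Irx3-low cells. No Irx3+ cell lacked both Slc17a6, the vesicular glutamate transporter, and Rbpms, against 24 Irx3-low cells (6%, 3.88% to 8.8%). For the Irx3+ cells, 0 of 59 allows for as much as 5.08%, which lies within that interval.

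Genes of other retinal cells were present in both groups. At least 3 of 8 bipolar markers were positive in 27.1% of Irx3+ cells (16.4% to 40.3%) and 31.8% of Irx3-low cells (27.2% to 36.6%), with median summed levels of 77.6 and 67.2 CPM. At least 3 of 8 rod genes were positive in 64.4% of Irx3+ cells and 62.5% of Irx3-low cells, with median sums of 346.03 and 485 CPM and highest sums of 49306 and 200120 CPM. For Müller glia these shares were 91.5% of Irx3+ cells (81.3% to 97.2%) and 77% of Irx3-low cells (72.6% to 81%), with intervals that did not overlap. The shares in this paragraph are pooled and were not weighted. For amacrine cells the shares were 28.8% and 25.2%, for cones 8.47% and 11.5%, and for microglia 6.78% and 2.75%. They were 1.69% and 1.25% for astrocytes, 3.39% and 2% for vessel cells, and 5.08% and 4.5% for erythrocytes. In each of these lists every marker was above 0 in at least 1 cell of each group. The part of such RNA in the results was not tested, and some results are also given with cells of bipolar markers left out.

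Depth was 3783016 to 9371854 gene counts per Irx3+ cell (median 5432037) and 58907 to 13004880 per Irx3-low cell (median 5018343.5). The median number of positive genes was 6068 in Irx3+ cells (95% interval 5829 to 6376) and 5380.5 in Irx3-low cells (5102 to 5638). Ribosomal RNA loci took a median of 10.9% of counts in Irx3+ cells and 18.3% in Irx3-low cells. Library names fall into 5 sequencing runs, of which run A held 36 Irx3+ cells (15.4% of its cells), run B 12 (12.2%), run C 6 (9.68%), run D 3 (5.08%) and run E 2 (10.5%). In run D the median number of positive genes was 5992 in Irx3+ cells and 2568 in Irx3-low cells. Shares are therefore given pooled and also with Irx3-low cells weighted to the run and the quartile of positive genes of the Irx3+ cells.

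Over 12900 genes positive in at least 5% of all cells, 604 (4.68%) were positive in a share of Irx3+ cells at least 20 percentage points higher than in Irx3-low cells, and 0 (0%) in a share at least 20 points lower. At a step of 10 points, 4760 genes (36.9%) were higher and 48 (0.372%) lower. The median pooled difference was 7.31 points and 83% of the genes were above 0, so pooled shares lay higher in Irx3+ cells across the transcriptome. With weighting the median was 0.503 points with 53.9% above 0, and 33 genes (0.256%) were at least 20 points higher and 19 (0.147%) at least 20 points lower. All 33 were among the 604. Without run A 26.3% of genes were at least 20 points higher and 0.0776% lower, and without run D 2.03% and 0.00767%.

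**Figure D2:**
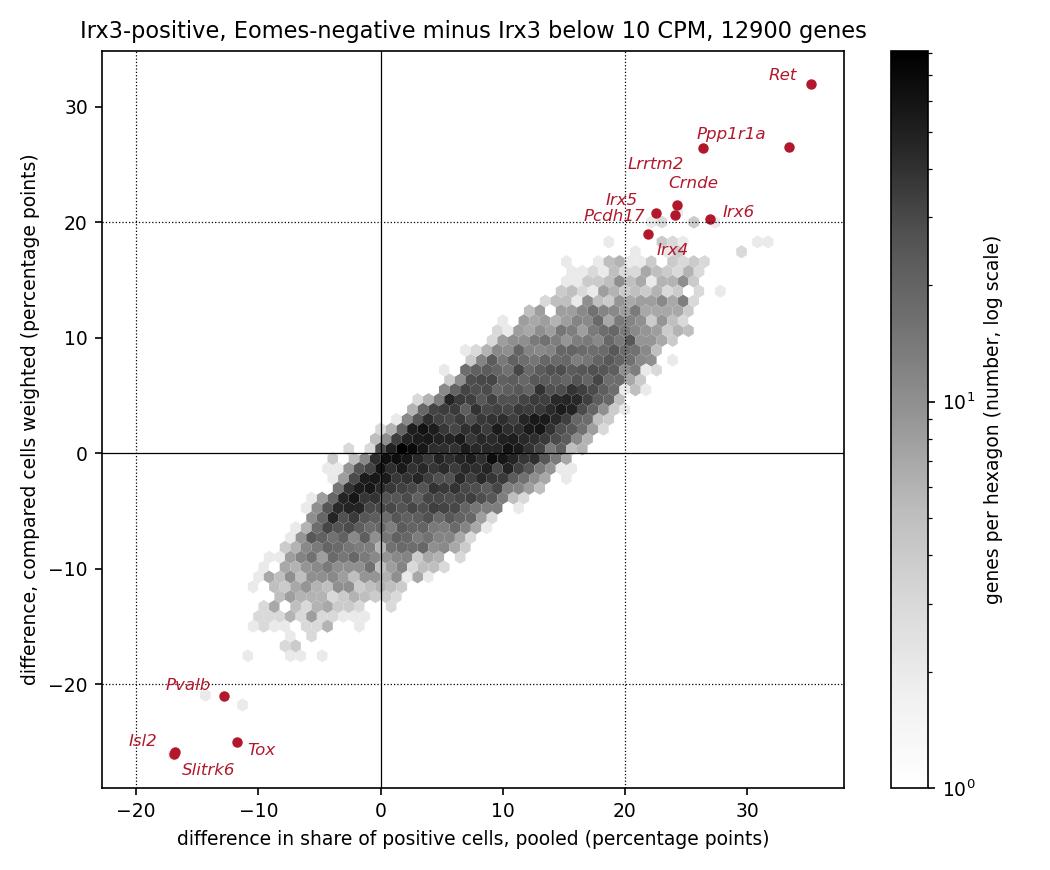
Hexagons count genes (shade, log scale) by the difference in share of positive cells, Irx3+ minus Irx3-low, pooled on the horizontal axis and with Irx3-low cells weighted on the vertical axis, both in percentage points; dotted lines mark 20 points and red points named genes. Pooled differences have a median of 7.31 and weighted ones of 0.503, with Ret at 35.2 and 31.9 points and Slitrk6 at -16.9 and -26.1 points.

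The Iroquois genes Irx4, Irx5 and Irx6 were carried by a larger share of Irx3+ cells than of Irx3-low cells. Irx6 was positive in 32 Irx3+ cells (54.2%, 40.8% to 67.3%) and in 27.2% of Irx3-low cells (22.9% to 31.9%, weighted 34%). Irx4 was positive in 20 Irx3+ cells (33.9%, 22.1% to 47.4%) and in 12% of Irx3-low cells (8.98% to 15.6%, weighted 14.9%). Irx5 was positive in 18 Irx3+ cells (30.5%, 19.2% to 43.9%) and in 8% of Irx3-low cells (5.54% to 11.1%, weighted 9.72%). The intervals of these pooled shares did not overlap, as was so, with the Irx3+ share higher, for 11.9% of all genes. The weighted differences were 20.3 points for Irx6, 19 for Irx4 and 20.8 for Irx5, beside a median of 0.503 over all genes. Irx2 was positive in 20.3% of Irx3+ cells and 10.8% of Irx3-low cells (weighted 12.5%), with overlapping intervals, and Irx1 in 0% and 0.5%, where 0 of 59 cells allows for as much as 5.08%.

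Within runs A, B and C, which hold at least 5 Irx3+ cells each, Irx5 was positive in 22.2%, 41.7% and 50% of Irx3+ cells, against 6.74%, 5.95% and 13% of Irx3-low cells. Irx4 was positive in 22.2%, 50% and 83.3% of Irx3+ cells, against 10.9%, 16.7% and 11.1% of Irx3-low cells. Irx6 was positive in 58.3%, 58.3% and 50% of Irx3+ cells, against 29.5%, 27.4% and 27.8% of Irx3-low cells. Each of these genes was higher in the Irx3+ cells of all 3 runs, while Irx2 was positive in 27.8%, 16.7% and 0% of Irx3+ cells and 12.9%, 4.76% and 13% of Irx3-low cells. With positive set at 100 CPM, in the rule as well, 8 cells met the rule, 7 of the Irx3+ cells and 1 Irx3+Eomes+ cell. The differences for Irx4 and Irx6 at 100 CPM then had the opposite sign, at -3.02 and -9.27 points. The compared cells, which then included the other Irx3+ cells, were positive in 3.02% and 9.27%. These differences therefore amount to no positive cell among the 8.

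Most Irx3+ cells carried a further Iroquois gene. At least 1 of Irx2, Irx4, Irx5 and Irx6 was positive in 79.7% (67.2% to 89%) of Irx3+ cells and in 43.2% (38.3% to 48.3%) of Irx3-low cells. Exactly 3 of them were positive in 10 Irx3+ cells, or 16.9% (8.44% to 29%), and in 6 Irx3-low cells, or 1.5% (0.552% to 3.24%). Irx5 and Irx6, neighbours in the cluster of Irx3, were positive together in 20.3% of Irx3+ cells and 3.5% of Irx3-low cells, and Irx4 and Irx5 in 13.6% and 1.25%. Cells of 3 or more bipolar markers were then left out. At least 1 of the 4 genes was positive in 83.7% of the remaining Irx3+ cells and 38.8% of the remaining Irx3-low cells. Of all genes, 9.26% were at least 20 points higher there, against 4.68% with all cells. The shares in this paragraph are pooled and were not weighted, and the part of bipolar RNA in them was not tested.

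Levels per kilobase of exon put the family members on one scale. Over Irx3+ cells the mean level was 18.9 CPM per kilobase for Irx3, which the rule selected, 16.7 for Irx6, 8.97 for Irx4, 4.55 for Irx5 and 3.02 for Irx2. In Irx3-low cells the mean was 6.77 CPM per kilobase for Irx6, 3.56 for Irx4, 1.07 for Irx5 and 1.34 for Irx2. Medians over Irx3+ cells were 11.1 for Irx3, 5.18 for Irx6, 0.093 for Irx4, 0.0454 for Irx5 and 0 for Irx2. Over Irx3-low cells they were 0.0474 for Irx6 and 0 for Irx4, Irx5 and Irx2. The means of Irx4, Irx5 and Irx2 thus rest on part of the cells in both groups. Among positive cells only, Irx6 had a median of 89.8 CPM in Irx3+ cells and 54.5 CPM in Irx3-low cells, and Irx4 of 67.8 and 33.6 CPM.

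Crnde, a long noncoding RNA gene beside Irx5, was singled out after its values were seen. It lies on the opposite strand (chr8:92326033-92356120), ends 1504 bases from Irx5 and shares no exon base with it. Crnde was positive in 18 Irx3+ cells (30.5%, 19.2% to 43.9%) and in 6.25% of Irx3-low cells (4.08% to 9.09%, weighted 9.02%). Within runs A, B and C it was positive in 22.2%, 25% and 66.7% of Irx3+ cells, against 7.25%, 10.7% and 1.85% of Irx3-low cells, higher in each. Its highest level was 77.1 CPM in Irx3+ cells and 82.2 CPM in Irx3-low cells. Irx5 and Crnde were positive together in 9 Irx3+ cells (15.3%) and 3 Irx3-low cells (0.75%), pooled and not weighted. Another 9 Irx3+ cells carried Crnde without Irx5. The pooled difference for Crnde was 38.2 points without run A, against 24.3 with all runs.

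Shares of these genes also differed by Irx3 level. With Irx3 at 0, above 0 and below 10, from 10 to below 30, and at 30 CPM or more, Irx5 was positive in 6.36%, 18.5%, 20.7% and 40% of cells. Irx4 was positive in 10.4%, 22.2%, 27.6% and 40% of cells in the same order, Crnde in 4.91%, 14.8%, 20.7% and 40% and Irx6 in 24%, 48.1%, 51.7% and 56.7%. For Irx6 the cells with Irx3 above 0 but below 10 CPM lay close to the Irx3+ cells, while Irx5, Irx4 and Crnde were highest at 30 CPM or more. The median number of positive genes in the 4 classes was 5217, 6492, 6376 and 5871.5, and its part in these shares was not tested beyond the weighting.

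**Figure D3:**
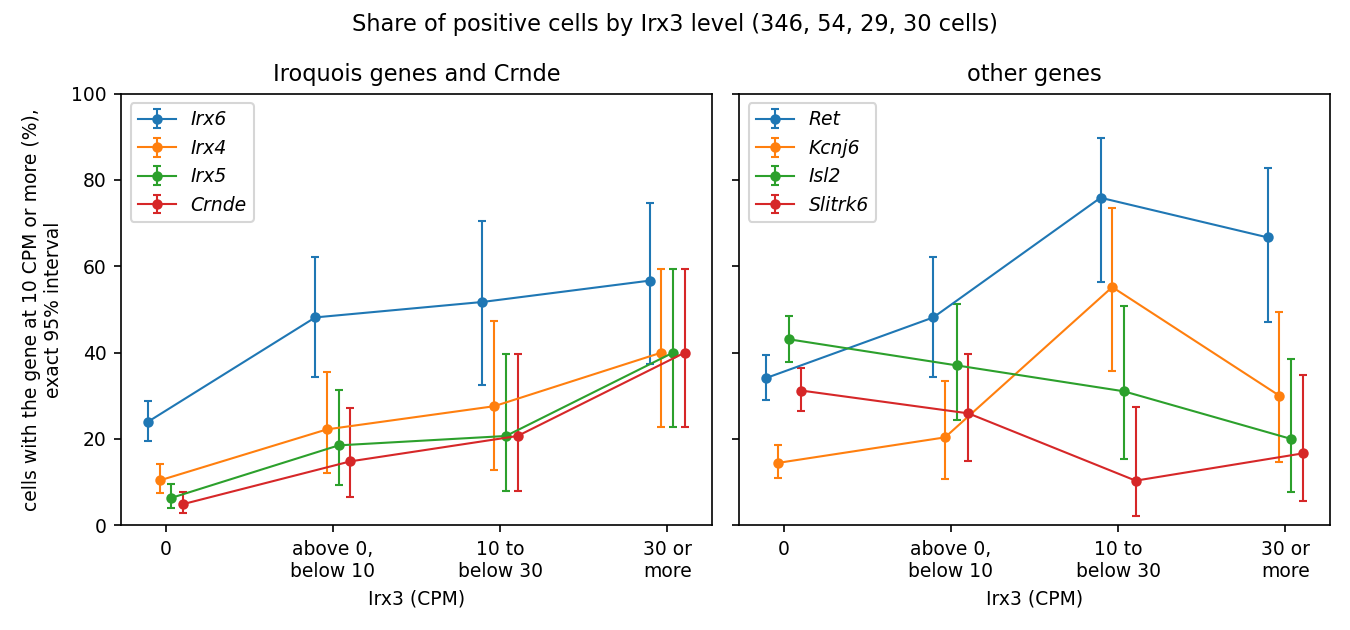
Share of cells (percent, vertical axis, exact 95% intervals) with each gene at 10 CPM or more, in 4 classes of Irx3 level (horizontal axis, CPM). From Irx3 at 0 to 30 CPM or more, Irx5 has 6.36%, 18.5%, 20.7% and 40%, Ret 34.1%, 48.1%, 75.9% and 66.7% and Isl2 43.1%, 37%, 31% and 20%.

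Transcription factors used to group ganglion cells were spread over the Irx3+ cells. Of 14 such factors 10 were frequent enough to compare, and 0 of them were at least 20 points higher. Their median weighted difference was -0.35 points, against 0.503 over all genes. Satb1, a chromatin organiser, was positive in 55.9% of Irx3+ cells and 39.8% of Irx3-low cells (weighted 46.6%). Tfap2d, an AP-2 factor, was positive in 47.5% of Irx3+ cells and 33.5% of Irx3-low cells (weighted 39.8%). Pou4f3, a POU factor of ganglion cells, was positive in 39% of Irx3+ cells and 22.2% of Irx3-low cells (weighted 27.6%). After weighting, Pou4f3 was at least 10 points higher, as were 7.05% of all genes.

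The other class factors differed in both directions. Bnc2, a zinc finger factor, was positive in 16.9% of Irx3+ cells and 24.5% of Irx3-low cells (weighted 29.8%), and Foxp1, a forkhead factor, in 11.9% and 19.5% (weighted 22.9%). These were the 2 factors at least 10 points lower after weighting, as were 3.95% of all genes. Foxp2, a forkhead factor of F type cells, was positive in 1 Irx3+ cell (1.69%, 0.0429% to 9.09%) and in 8.25% of Irx3-low cells. Tbr1, a T-box factor, was positive in 15.3% of Irx3+ cells and 17% of Irx3-low cells, Neurod2, a bHLH factor, in 16.9% and 12.5%, and Tbx20 in 0% and 3.25%. At least 1 of Tbr1, Neurod2, Foxp2 and Tfap2d was positive in 62.7% (49.1% to 75%) of Irx3+ cells and 55% (50% to 60%) of Irx3-low cells, with overlapping intervals.

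Pairs of class factors were found in part of the Irx3+ cells. Tfap2d and Satb1 were positive together in 23 Irx3+ cells, or 39% (26.6% to 52.6%), and in 19% (15.3% to 23.2%) of Irx3-low cells. Tfap2d and Pou4f3 were positive together in 33.9% of Irx3+ cells and 11.5% of Irx3-low cells, and Tfap2d and Irx6 in 33.9% and 14.8%. These shares of pairs are pooled and were not weighted, and 83% of all genes lay higher in Irx3+ cells pooled. In contrast, 22 Irx3+ cells carried none of Tbr1, Neurod2, Foxp2 and Tfap2d. Tfap2d was positive in 13 Irx3+ cells below 30 CPM of Irx3 and 15 at 30 CPM or more, so both ranges held Tfap2d cells.

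**Figure D4:**
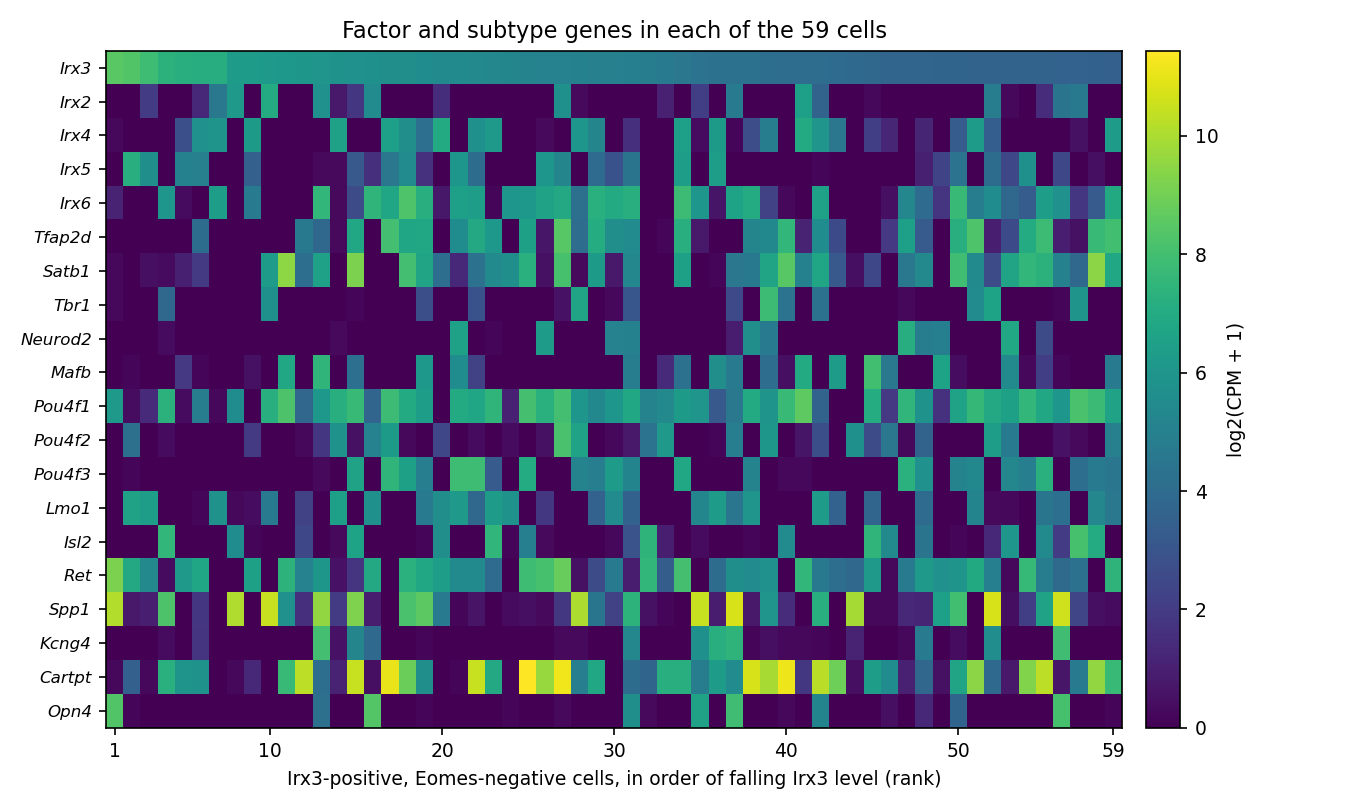
Colour gives log2(CPM + 1) of each gene (rows) in each of the 59 Irx3+ cells (columns), in order of falling Irx3 level from rank 1 to 59. Ret is positive in 42 of the cells and Irx6 in 32, while Tbr1 is positive in 9 and Neurod2 in 10.

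Further transcription factors differed in both directions. Of 14, 12 were compared, with a median weighted difference of -3.32 points. Lmo1, a LIM-only cofactor, was positive in 28 Irx3+ cells (47.5%, 34.3% to 60.9%) and in 25.8% of Irx3-low cells (21.5% to 30.3%, weighted 32.2%). Lmo2 was positive in 15.3% of Irx3+ cells and 4.25% of Irx3-low cells (weighted 5.15%), while Lmo4, of the same family, was positive in 25.4% and 35.5% (weighted 42.2%) and Meis2, another TALE factor, in 52.5% and 60.2% (weighted 68.2%). The LIM-homeodomain factor Isl2, known in mouse from ganglion cells that project across the midline, was positive in 15 Irx3+ cells (25.4%, 15% to 38.4%) and in 42.2% of Irx3-low cells (37.4% to 47.3%, weighted 51.3%). Within runs A, B and C, Isl2 was positive in 30.6%, 8.33% and 16.7% of Irx3+ cells, against 49.2%, 41.7% and 37% of Irx3-low cells, lower in each. Its weighted difference was -25.9 points.

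**Figure D5:**
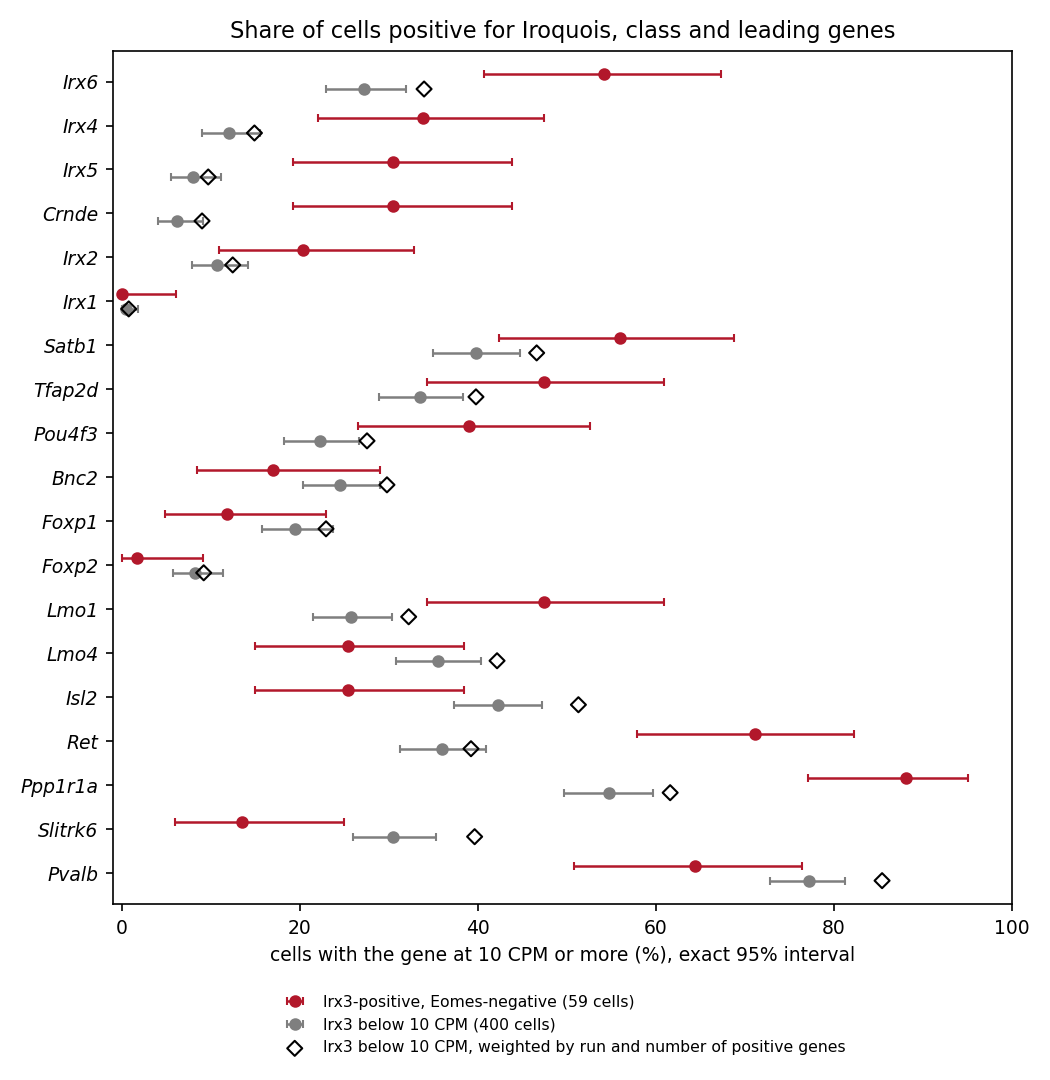
Share of cells (percent, horizontal axis) with each gene at 10 CPM or more, with exact 95% intervals, for Irx3+ cells (upper point of each pair) and Irx3-low cells (lower point), and open diamonds for weighted Irx3-low cells. Irx6, Irx4, Irx5, Crnde, Lmo1, Ret, Ppp1r1a and Slitrk6 have pooled intervals that do not overlap, as have 11.9% of all genes with the Irx3+ share higher and 0.0543% with it lower, and Isl2 lies at 25.4% against 42.2%.

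Ret, the receptor tyrosine kinase for ligands of the GDNF family, had the largest difference of all genes. It had a lowest value of 0, a median of 40.9 and a highest of 587 CPM in Irx3+ cells, against 0, 0.395 and 710 CPM in Irx3-low cells. Ret was positive in 42 Irx3+ cells (71.2%, 57.9% to 82.2%) and in 36% of Irx3-low cells (31.3% to 40.9%, weighted 39.2%). The ranges overlapped and the groups differed in how many cells carried Ret, since the medians among positive cells were 67.1 CPM in Irx3+ cells and 60.2 CPM in Irx3-low cells. Within runs A, B and C Ret was positive in 69.4%, 58.3% and 83.3% of Irx3+ cells, against 37.8%, 27.4% and 50% of Irx3-low cells. Over the alternatives tried its difference ran from 25.2 to 40.2 points.

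Ret acts together with coreceptors of the Gfra family that bind the ligands. Gfra1 was positive in 11.9% of Irx3+ cells and 16.8% of Irx3-low cells (weighted 17.9%) and Gfra2 in 6.78% and 12.2% (weighted 14.5%). Of 9 trophic receptors compared, 1 was at least 20 points higher after weighting, which was Ret itself, beside 0.256% of all genes, and their median weighted difference was -3.86 points. Ntrk2, the receptor for BDNF, was positive in 78% of Irx3+ cells and 67.2% of Irx3-low cells (weighted 76.9%). Ret and Irx6 were positive together in 39% of Irx3+ cells and 11.8% of Irx3-low cells, and Ret and Irx5 in 25.4% and 4.25%. These shares of pairs are pooled and were not weighted.

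Ret was followed by genes of varied roles among the 20 of largest pooled difference. Ppp1r1a, an inhibitor of protein phosphatase 1, was positive in 88.1% of Irx3+ cells and 54.8% of Irx3-low cells (weighted 61.6%). Unc5a, a netrin receptor, was positive in 69.5% of Irx3+ cells and 38.8% of Irx3-low cells (weighted 46.9%), Slc29a4, a monoamine transporter, in 78% and 46.2% (weighted 59.7%), and Gpr26, an orphan receptor, in 89.8% and 60.5% (weighted 70.3%). Rasa4, a Ras GTPase-activating protein, was positive in 81.4% of Irx3+ cells and 51.8% of Irx3-low cells (weighted 57.1%), and Mpp2, a synaptic scaffold, in 72.9% and 43% (weighted 50.2%). Sytl2, a Rab27 effector, was positive in 76.3% of Irx3+ cells and 46.8% of Irx3-low cells (weighted 56.5%), Wwp2, a ubiquitin ligase, in 83.1% and 52.8% (weighted 63.7%), and Cxxc5, a CXXC zinc finger protein, in 81.4% and 48.2% (weighted 58.3%). After weighting, Ankrd29 was 21.2 points higher, while Nub1, Rnf141, Tusc2, Xpo7, Svip, Trip11, Pygb, Fscn1 and Tmem126b were 16.2 to 18.8 points higher.

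Further genes at least 20 points higher after weighting were chosen after their values were seen. Lrrtm2, a postsynaptic leucine-rich adhesion protein, was positive in 42.4% of Irx3+ cells and 16% of Irx3-low cells (weighted 16%). Kcnj6, a potassium channel subunit opened by G proteins, was positive in 42.4% of Irx3+ cells and 15.2% of Irx3-low cells (weighted 18.9%). Cnr1, the cannabinoid receptor of neurons, was positive in 50.8% of Irx3+ cells and 23.5% of Irx3-low cells (weighted 28.6%). Slc36a1, a lysosomal amino acid transporter, was positive in 47.5% of Irx3+ cells and 18.8% of Irx3-low cells (weighted 22.5%). Kirrel3, an adhesion protein of the immunoglobulin family, was positive in 33.9% of Irx3+ cells and 12.8% of Irx3-low cells (weighted 13.5%), and Mal2, a transcytosis protein, in 35.6% and 11.2% (weighted 14.3%). Among Irx3+ cells, Kcnj6 was positive in 55.2% of those with Irx3 from 10 to below 30 CPM and 30% of those with 30 CPM or more, so it was not highest where Irx3 was highest.

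Slitrk6, a neurite and synapse adhesion protein, led the genes carried by fewer Irx3+ cells. Slitrk6 was positive in 8 Irx3+ cells (13.6%, 6.04% to 25%) and in 30.5% of Irx3-low cells (26% to 35.3%, weighted 39.6%). Among positive cells its median was 41.6 CPM in Irx3+ cells and 117.1 CPM in Irx3-low cells. Pvalb, a calcium-binding protein, was positive in 64.4% of Irx3+ cells and 77.2% of Irx3-low cells (weighted 85.4%), and Cacna1g, a T-type calcium channel, in 28.8% and 42% (weighted 48%). Tox, an HMG-box factor chosen after its values were seen, was positive in 39% of Irx3+ cells and 50.8% of Irx3-low cells (weighted 64%). The photoreceptor genes Pde6a and Cdhr1 were also on this list, Pde6a at 18.6% of Irx3+ cells and 32.5% of Irx3-low cells and Cdhr1 at 13.6% and 26.2%. Of the 8 genes of the rod list, which does not hold them, 6 were higher in Irx3+ cells pooled and 6 weighted, with a weighted median of 2.46 points, while the median rod sums were 346.03 CPM in Irx3+ cells and 485 CPM in Irx3-low cells. The part of rod RNA in them was not tested.

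Markers of known ganglion cell subtypes were carried by part of the cells in both groups. At least 3 of 5 alpha cell genes were positive in 52.5% of Irx3+ cells and 48% of Irx3-low cells. Of these genes Nefh, a neurofilament, was positive in 93.2% of Irx3+ cells and 75.2% of Irx3-low cells (weighted 87.9%) and Scn4b, a sodium channel subunit, in 45.8% and 35.5% (weighted 41.6%), both higher, while Pvalb was lower as given above. Spp1 was positive in 39% of Irx3+ cells and 46.5% of Irx3-low cells (weighted 51%), Kcng4 in 16.9% and 26.8% (weighted 31.9%), and both together in 11.9% (4.91% to 22.9%) of Irx3+ cells and 22.8% (18.7% to 27.2%) of Irx3-low cells. At least 3 of 6 genes of direction-selective cells were positive in 23.7% of Irx3+ cells and 20.5% of Irx3-low cells, and the peptide gene Cartpt among them in 69.5% and 57% (weighted 60.9%). At least 3 of 6 genes of Opn4 cells, a list that holds Eomes and so is partly set by the rule, were positive in 6.78% and 7.5%, and Opn4 itself in 15.3% and 9%. At least 3 F type genes were positive in 8.47% of Irx3+ cells and 5.25% of Irx3-low cells. The F type list holds Irx4, higher in Irx3+ cells as given above, and Foxp1 and Foxp2, both lower. At least 3 T type genes were positive in 8.47% of Irx3+ cells and 6.75% of Irx3-low cells. Pcdh11x, a protocadherin and subtype marker, was positive in 62.7% of Irx3+ cells and 37.2% of Irx3-low cells (weighted 43.1%), and the peptide gene Gal in 8.47% and 20.2% (weighted 22.8%).

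Ion channel genes differed in both directions. Of 27 genes on the potassium channel list compared, which does not hold Kcnj6, 3 were at least 20 points higher pooled, beside 4.68% of all genes, and 0 weighted, beside 0.256%. After weighting 6 were at least 10 points higher and 2 lower, with a median of -2.35 points, where 7.05% of all genes were higher and 3.95% lower by that step. Kcnd3, an A-type channel, was positive in 69.5% of Irx3+ cells and 46.5% of Irx3-low cells (weighted 53.9%). Of 12 calcium and HCN channel genes 3 were at least 10 points higher and 2 lower after weighting, with a median of -3.7 points. Of 9 sodium channel genes 0 were higher and 1 lower by that step, with a median of 2.02 points. The pacemaker subunit Hcn2 was positive in 39% of Irx3+ cells and 22% of Irx3-low cells (weighted 24.4%), and Hcn4 in 42.4% and 26% (weighted 31.2%). In run B Hcn2 was lower in Irx3+ cells, at 8.33% against 10.7%, as was Hcn4 in run C, at 16.7% against 22.2%.

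Among transmitter receptors, the 18 genes for GABA and glycine had a weighted median difference of 5.95 points, with 14 above 0, beside a median of 0.503 points and 53.9% above 0 over all genes. Gabrg1, a GABA-A subunit, was positive in 50.8% of Irx3+ cells and 28.8% of Irx3-low cells (weighted 37%), and Gabbr2, a GABA-B subunit, in 57.6% and 40.8% (weighted 46%). The 19 glutamate receptor genes had a weighted median of 1.24 points. The metabotropic receptor Grm5 was positive in 37.3% of Irx3+ cells and 19.8% of Irx3-low cells (weighted 21.8%), and Grm7 in 47.5% and 51.8% (weighted 61.9%). In run C Grm5 was lower in Irx3+ cells, at 16.7% against 20.4%, and Grm7 was higher, at 66.7% against 63%. Htr1b, a serotonin receptor, was positive in 78% of Irx3+ cells and 52.2% of Irx3-low cells (weighted 62.9%), and Chrna4, a nicotinic subunit, in 54.2% and 37.2% (weighted 42.4%).

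Adhesion genes differed gene by gene. Of 24 compared, 3 were at least 20 points higher pooled, beside 4.68% of all genes, and 1 weighted, beside 0.256%, with a weighted median of 0.591 points. Pcdh17, a protocadherin, was positive in 30 Irx3+ cells (50.8%, 37.5% to 64.1%) and in 26.8% of Irx3-low cells (22.5% to 31.4%, weighted 30.2%). Cdh11, a type II cadherin, was positive in 52.5% of Irx3+ cells and 30.5% of Irx3-low cells (weighted 40.1%), and Cntn2, a contactin, in 71.2% and 47.5% (weighted 56.9%). On the lower side, Cdh6 was positive in 28.8% of Irx3+ cells and 33.5% of Irx3-low cells (weighted 39%), lower in runs A, B and C. Dscam, a homophilic adhesion molecule, was positive in 33.9% and 40% (weighted 48.1%). Dscam was lower in run A, at 25% against 43%, and higher in runs B (58.3% against 41.7%) and C (50% against 40.7%).

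The Irx3+ cells varied most among themselves in a mixed set of genes. The first of 10531 genes ranked by variability beyond their level were Rn7s2 and Rn7s1, near-identical copies of the 7SL RNA that the counting could split, positive in 41 cells each. Cartpt was positive in 41 of the 59 cells, with a highest value of 2778 CPM. Spp1 was positive in 23 cells, with a highest value of 1729.5 CPM, so both peptide and alpha cell genes split these cells. The rod genes Sag, Gnat1 and Pde6g were on this list as well, Gnat1 reaching 8982 CPM, as were Camkv, a vesicle-associated pseudokinase, and Xist, the RNA of the inactive X chromosome.

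Likeness between cells was measured without Irx3 and Eomes, from the 15 nearest neighbours on 30 principal components of 2000 variable genes. Of the neighbours of an Irx3+ cell a mean of 25.5% and a median of 26.7% were Irx3+ cells, against a mean of 11% and a median of 6.67% for an Irx3-low cell. The weighted mean for Irx3-low cells was 13.4%, and 12.3% of the other cells were Irx3+. In runs A, B and C the mean was 25.4%, 22.2% and 33.3% for Irx3+ cells, against 11.8%, 10.3% and 14.8% for Irx3-low cells. Irx3+ cells were thus more frequent near one another in each run, yet most neighbours were Irx3-low cells and 7 of the 59 had no Irx3+ neighbour. With the rule set at 30 CPM of Irx3 the median share of such neighbours was 6.67%, beside their share of 6.16% among the other cells. Shares of 15 neighbours move in coarse steps and no mean was taken at this level. The median therefore cannot tell whether these cells lay nearer one another.

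The 13 Irx3+Eomes+ cells are given as counts. Irx6 was positive in 12 of the 13, Irx5 in 5, Irx4 in 4 and Ret in 6. Opn4 was positive in 7 of them, Spp1 in 10 and Kcng4 in 8, while Slitrk6 was positive in 0. Of the 28 cells with Eomes and with Irx3 below 10 CPM, which belong to the Irx3-low cells, 9 carried Irx6, 5 carried Irx5, 2 carried Irx4, 7 carried Ret and 11 carried Opn4.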

How the data were processed

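Single retinal ganglion cells were profiled with Smart-seq2, which has no molecular identifiers, as 150-bp paired reads, per the labels' protocols. The authors deposited estimated counts per gene and cell, of which 1.36% were not whole. Reads were aligned with STAR 2.7.0 to mm10, per the submitters' processing notes. The quantification tool was not given in the sources used here.

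Estimated counts were rounded to whole numbers and scaled to 1000000 gene counts per cell without the 92 spike-ins (CPM). Positions are 1-based and from GENCODE release M21. No cell was left out and no doublet caller was run. Runs A to E were read from library names, with A, D and E as flow cells and B and C as order numbers. Intervals of shares are exact (Clopper-Pearson, 95%), and the limit for a share of 0 rests on 3 counts. Since each sample is 1 cell and no animals are named, no test was made. The comparison of shares was tested on simulated data with cells drawn at random. Such cells lack the higher number of positive genes and the uneven runs of the Irx3+ cells. The simulation therefore cannot show how well the weighting handles these.

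The members and the 29 gene lists were chosen with earlier results of these data known. Named genes were those of the 20 largest positive and 10 largest negative pooled differences with the same sign in runs of 5 or more Irx3+ cells, genes of lists up to 14, the 4 highest and 3 lowest of longer lists, and the 10 most variable, by the SD of log2(CPM + 1) beyond the median of 20 bins of mean level. Genes described as chosen after their values were seen fall outside this rule, and some genes that meet it are not reported here. Alternatives were thresholds of 1 and 100 CPM, thinning to 1000000 counts, filters on cells and on loci, weighting, and leaving out each run. The software was Python 3.11.15 with numpy (2.4.6), scipy (1.17.1), pandas (2.3.3) and matplotlib (3.10.9).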

Additional observations from a re-analysis of the deposited data

How the results depend on the processing

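No paired analysis was possible because all cells form 1 group with no shared replicate numbers. With positive set at 1 CPM, in the rule as well, 7.84% of genes were at least 20 points higher in the cells that met it (4.68% at 10 CPM). These cells had a median of 7739 positive genes, 44.7% had 3 bipolar markers and 75% had at least 1 of Tbr1, Neurod2, Foxp2 and Tfap2d. At 100 CPM 8 cells met the rule, 7 of the Irx3+ cells and 1 Irx3+Eomes+ cell. In them 4.58% of genes were at least 20 points lower, and these measures were 2244.5 genes, 0% and 0%. Of the 8 cells 87.5% held 6 pan-ganglion genes, and the neighbour median was 3.33%. At 100 CPM the difference was negative for Fscn1 (-9.27 points), Mpp2 (-1.29), Sytl2 (-2.15) and Wwp2 (-3.23). It was also negative for D430036J16Rik (-2.15), Irx4 (-3.02), Irx6 (-9.27), Kcnj6 (-4.09), Lmo1 (-5.39), Mal2 (-1.51), Rnf141 (-8.84), Slc36a1 (-4.09), Srcin1 (-1.94) and Svip (-9.48). For the genes from D430036J16Rik to Svip no cell among the 8 was positive, so each difference is minus the share of the compared cells.

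Genes at least 20 points higher were 1.27% and lower ones 0.0377% among cells with 3000 or more positive genes, 0.256% and 0.147% with weighting, and 9.26% higher without cells of 3 bipolar markers, whose share is then 0% by construction. After thinning 0.00774% were lower. Leaving out each run gave 23 to 57 Irx3+ cells, 2.03% to 26.3% higher genes and 0% to 0.0776% lower genes. An alternative chosen after seeing the data, Irx3 at 30 CPM or more, gave 30 cells, 0.124% lower genes and a neighbour median of 6.67%. Of the 38 followed genes 20 points apart, 23 were so after weighting and 33 to 38 without any 1 run. The causes were not tested. The number of Irx3+ cells limits every interval.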
